A study of Mus musculus with 9 samples.

Results

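The 10 genes described here encode enzymes that modify collagen and join its chains, together with a chaperone of collagen: Lox, Loxl1, Loxl2, Loxl3, Loxl4, Plod1, Plod2, P4ha1, P4ha2 and Serpinh1. They were chosen by name, with earlier results of these data known, and are 10 of the 17846 genes listed for mouse liver. All 10 were among the 13619 genes with enough reads to be tested. RNA sequencing was performed on the livers of 9 male wild-type C57/BL mice in 3 groups of 3. Control mice (labelled 3, 4 and 29) received normal chow and did not train. NASH mice (5, 19 and 20) were fed the atherogenic (Ath) diet, which contains cholesterol and cholate, for 20 weeks and stayed sedentary. NASH+Exercise mice (8, 18 and 22) were fed the same diet for 12 weeks and then for another 8 weeks while running on a treadmill. The training period, or the sedentary period in its place, started at 20 weeks of age in all 3 groups. Mice were fasted overnight before the liver was taken. The comparisons ask how the diet, and treadmill training during the diet, changed the hepatic transcriptome.

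A collagen chain is modified while it is still in the endoplasmic reticulum. Prolyl 4-hydroxylase, whose catalytic alpha subunits include P4ha1 and P4ha2, hydroxylates proline residues and so keeps the triple helix stable. The lysyl hydroxylases Plod1 and Plod2 hydroxylate lysine residues, in the helix and in the telopeptides respectively. Serpinh1 (HSP47) is a chaperone that binds folded procollagen. Outside the cell, the copper-dependent lysyl oxidases Lox and Loxl1 to Loxl4 oxidise lysine and hydroxylysine residues, which then join into the covalent crosslinks that make fibrillar collagen and elastin stiff and resistant to degradation. In injured liver, activated stellate cells and portal fibroblasts are the main source of fibrillar collagen.

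The sequence before the gene start is shown for Serpinh1, the member with the largest difference between trained and control mice, and for P4ha1 and P4ha2. The means of this pair were higher in trained mice than in the other groups by both CPM and TPM, the scales explained below. By CPM alone this also held for Plod1 and, barely, for Serpinh1. Sequences are read 5′ to 3′ on the strand of the gene (RefSeq, GRCm38.p6). The promoter table held 5 of the 10 members. Capitals mark ACGTG and GCGTG, the core of the hypoxia response element to which HIF binds, on either strand (CACGT and CACGC on the other strand). The Serpinh1 stretch is chr7:99353240-99353489 on the minus strand, the P4ha1 stretch is chr10:59323046-59323196 on the plus strand and the P4ha2 stretch is chr11:54100674-54100923 on the plus strand.
Serpinh1: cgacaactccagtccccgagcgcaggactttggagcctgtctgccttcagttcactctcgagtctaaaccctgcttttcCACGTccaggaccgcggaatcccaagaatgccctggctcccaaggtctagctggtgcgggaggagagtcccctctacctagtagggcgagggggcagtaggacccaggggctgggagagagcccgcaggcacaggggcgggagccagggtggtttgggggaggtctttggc
P4ha1: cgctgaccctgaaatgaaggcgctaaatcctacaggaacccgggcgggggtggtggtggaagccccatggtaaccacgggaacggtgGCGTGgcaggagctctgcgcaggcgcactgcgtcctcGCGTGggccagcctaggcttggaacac
P4ha2: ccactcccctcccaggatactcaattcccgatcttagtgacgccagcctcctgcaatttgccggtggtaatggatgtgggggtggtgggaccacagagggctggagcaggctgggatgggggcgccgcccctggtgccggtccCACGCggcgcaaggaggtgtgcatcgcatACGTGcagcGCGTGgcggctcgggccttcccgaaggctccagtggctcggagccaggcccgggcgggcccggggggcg
The P4ha2 stretch of 250 bases held 1 ACGTG and 2 GCGTG cores, and the Serpinh1 stretch of 250 bases held 1 ACGTG core. The P4ha1 stretch, cut to the 151 bases before the annotated gene start, held 2 GCGTG cores. Plod1 and Loxl4, the members in the promoter table whose sequence is not shown, each held a GCGTG core as well. Over the 250 bases before the start of 32851 promoters, ACGTG was present in 16.6% and GCGTG in 28.2%. The median GC content of those promoters was 52.4%, against 63.6% for Serpinh1, 65.6% for P4ha1 and 70% for P4ha2. These shares are therefore not matched for GC content. AGAC, the core bound by SMAD proteins, was present in 82.9% of the 32851 promoters on either strand (GTCT on the other). It occurred 4 times in the Serpinh1 stretch and in neither the P4ha1 nor the P4ha2 stretch. The Plod1 and Loxl4 stretches held it too, and Plod1 held it as many times as Serpinh1. A match describes the letters of the window and shows no binding.

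Depth was even, with 20085976 to 22495408 estimated counts per liver. Levels are given as CPM, counts relative to the library size after TMM scaling between libraries, when the same gene is compared between mice, and as TPM, which is also divided by transcript length, when genes are compared with each other. TPM carries a shift between groups, since the median gene differed by 0.34 on the log2(TPM + 1) scale in NASH against control and by 0.01 after TMM scaling. A gene is said to have passed when its p in edgeR's quasi-likelihood test, adjusted by Benjamini-Hochberg over all genes tested, was under 0.05, and it is called a DEG when its absolute log2 fold change was also above 1. In whole liver, more cells of a type cannot be told apart from more RNA per cell.

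In NASH against control, 6 of the 10 members rose and none fell. All 6 were DEGs: Lox, Loxl1, Loxl2, Loxl3, Plod2 and Serpinh1. Among all genes tested, 21.2% passed as higher and 15.3% were DEGs as higher (35.6% passed in either direction). The same 6 members were those whose NASH and control mice did not overlap, as was the case for 49.6% of all genes. Loxl4, Plod1, P4ha1 and P4ha2 did not pass. The median log2 fold change of the 10 members was 1.13, against 0.01 for all genes tested. With training during the diet, none of the 10 passed against NASH by edgeR's quasi-likelihood test, where 0.162% of all genes did, and 4 had an unadjusted p under 0.05 (15.3% of all genes): Lox, Loxl1 and Loxl2 with lower values and P4ha2 with higher ones. These 4 were also the members whose trained and NASH mice did not overlap (24.1% of all genes). The log2 fold change was negative for 6 members, the 5 lysyl oxidases and Plod2, and for 54.9% of all genes. By DESeq2, 2 members passed, Lox and Loxl1, both lower, where 3.87% of genes with an adjusted p passed. Against control, 6 members rose in NASH+Exercise mice, of which 4 were DEGs (Lox, Loxl1, Plod2 and Serpinh1) and 2 were not (Loxl3 and P4ha2), where 25.1% of all genes passed, 15.6% passed as higher, 13.5% were DEGs and 10.4% were DEGs as higher. The 4 DEGs here were also DEGs in NASH against control. The comparisons share mice, so their counts are not independent of each other.

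**Figure D1:**
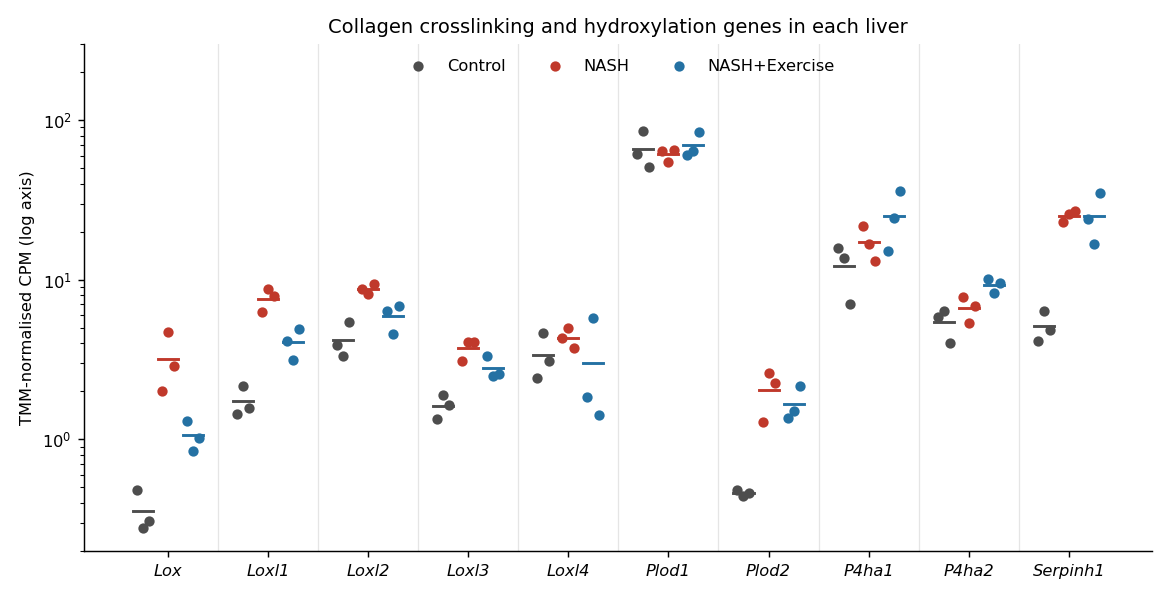
TMM-normalised CPM (log axis) of the 10 members in each liver. Points are mice and lines are group means of 3 mice. The NASH mice lie above all control mice for Lox, Loxl1, Loxl2, Loxl3, Plod2 and Serpinh1, while the groups overlap for Plod1.

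**Figure D2:**
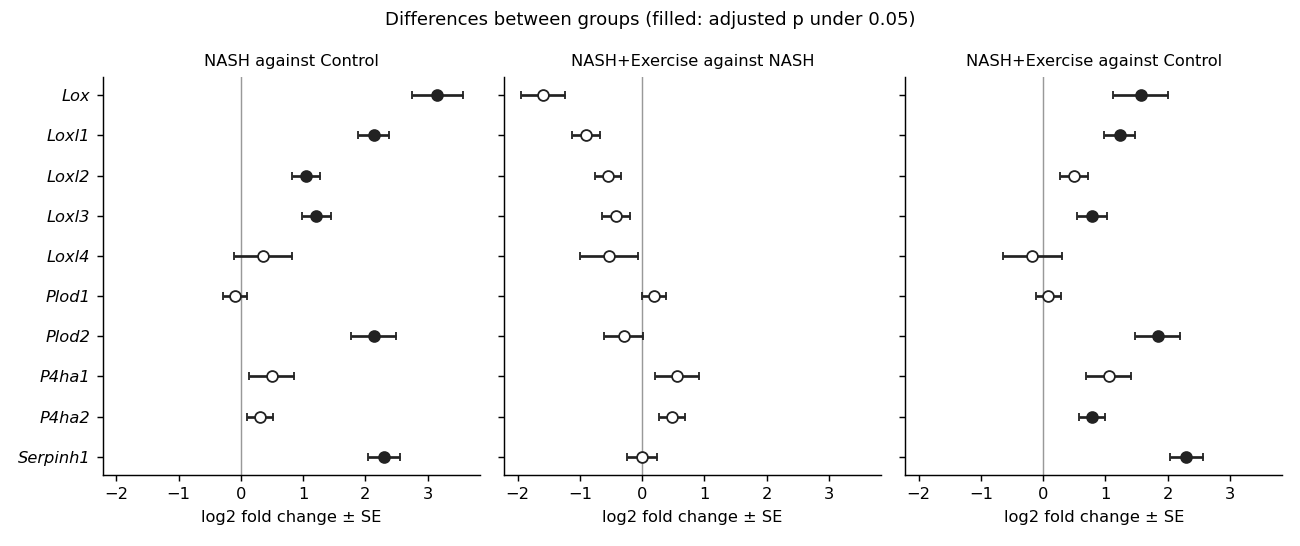
Log2 fold change ± SE of the 10 members in the 3 comparisons, from edgeR's quasi-likelihood fit of all 9 mice. Filled points passed (adjusted p under 0.05). The 5 lysyl oxidases lie left of 0 in NASH+Exercise against NASH, where no member passed, and Serpinh1 lies at 0.00.

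Lox, the founding lysyl oxidase, had the largest change of the family. Its level was 0.483, 0.278 and 0.306 CPM in control mice 3, 4 and 29, then 1.995, 4.73 and 2.89 CPM in NASH mice 5, 19 and 20, and 1.31, 0.850 and 1.02 CPM in NASH+Exercise mice 8, 18 and 22. The 3 groups did not overlap, with the trained mice between the other groups and NASH mouse 19 the highest of all. Lox was 8.90-fold higher in NASH than in control (log2 fold change 3.15, SE 0.41, edgeR adjusted p = 0.000227). Its log2 fold change in NASH+Exercise against NASH was -1.59 (SE 0.35, 95% confidence interval -2.37 to -0.81), and the edgeR adjusted p was 0.122, while DESeq2 gave -1.55 with an adjusted p of 0.0097. Against control, Lox was still higher in NASH+Exercise mice (log2 fold change 1.56, edgeR adjusted p = 0.0246). That last call rests on few reads, 5 to 9 estimated counts in a control liver, and was lost without control mouse 4 (edgeR adjusted p = 0.0684), without control mouse 29 (0.0704) or without NASH+Exercise mouse 8 (0.0831). It was also lost by DESeq2 (1.55, adjusted p = 0.0507) and by limma on log2(TPM + 1) (0.30, adjusted p = 0.299).

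Loxl1 (chr9:58287723-58313212), the family member linked to elastic fibre assembly, followed the same order of groups. It measured 1.45, 2.17 and 1.58 CPM in control, 6.28, 8.69 and 7.86 CPM in NASH, and 4.10, 3.16 and 4.92 CPM in NASH+Exercise mice. No mouse of one group reached the range of another. Loxl1 rose in NASH (log2 fold change 2.13, edgeR adjusted p = 0.000104) and was also higher in NASH+Exercise mice than in control (1.23, edgeR adjusted p = 0.00457). Its log2 fold change in NASH+Exercise against NASH was -0.91 (95% confidence interval -1.41 to -0.40, edgeR adjusted p = 0.136), and it passed there by DESeq2 (-0.85, adjusted p = 0.0272) and by limma on log2(TPM + 1) (-0.90, adjusted p = 0.0424).

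Loxl2 (chr14:69608692-69695834) and Loxl3 (chr6:83034205-83052566) belong to the branch of the family with scavenger receptor domains, and both rose by a smaller factor. Loxl2 was 3.92, 3.34 and 5.41 CPM in control, 8.73, 8.11 and 9.35 CPM in NASH, and 6.42, 4.58 and 6.87 CPM in NASH+Exercise mice. The NASH mice lay above all the other mice, while the control and NASH+Exercise mice overlapped. Loxl2 rose in NASH (log2 fold change 1.05, edgeR adjusted p = 0.00405), close to the limit of 1 for a DEG. It still passed but was under that limit without control mouse 3 (0.99) or 4 (0.88), without NASH mouse 20 (0.99) and by limma on log2(TPM + 1) (0.98). Its log2 fold change in NASH+Exercise against NASH was -0.55 (edgeR adjusted p = 0.267), and against control it was 0.49 (edgeR adjusted p = 0.134), a comparison that passed without control mouse 29 (0.70, edgeR adjusted p = 0.0458). In GENCODE M21 transcripts, 45.0% of the 50-base words of Loxl2 also occur on the same strand of other genes, 185 in all, so that reads could have been divided between them.

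Loxl3 was 1.34, 1.89 and 1.63 CPM in control, 3.12, 4.07 and 4.08 CPM in NASH, and 3.32, 2.50 and 2.58 CPM in NASH+Exercise mice. NASH+Exercise mouse 8 lay above the lowest NASH mouse, and both groups on the Ath diet lay above control. Loxl3 rose in NASH (log2 fold change 1.21, edgeR adjusted p = 0.00259), and it rose in NASH+Exercise mice against control (0.79, edgeR adjusted p = 0.0336). The latter call was lost without control mouse 3 (edgeR adjusted p = 0.116) or 29 (0.0785), without NASH mouse 20 (0.0517), or without NASH+Exercise mouse 8 (0.122), 18 (0.0510) or 22 (0.0513). With all mice of the groups compared it was also lost by DESeq2 (0.76, adjusted p = 0.121), by edgeR on those 6 mice alone (0.83, adjusted p = 0.0548) and by limma on log2(TPM + 1) (0.42, adjusted p = 0.0711). Loxl3 shares 8.54% of its 50-base words with the opposite strand of Htra2, and whether counting used strand is not given in the sources used here.

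Loxl4 (chr19:42592279-42612806), of the same branch, was the lysyl oxidase whose groups overlapped in every comparison. It measured 2.42, 4.67 and 3.11 CPM in control, 4.32, 4.97 and 3.74 CPM in NASH, and 1.83, 5.76 and 1.41 CPM in NASH+Exercise mice. NASH+Exercise mouse 18 had the highest level of all 9 mice and the other two trained mice the lowest. The log2 fold changes were 0.36 in NASH against control (95% confidence interval -0.68 to 1.39, edgeR adjusted p = 0.594) and -0.53 in NASH+Exercise against NASH (-1.57 to 0.50, edgeR adjusted p = 0.629). Against control, NASH+Exercise mice passed as lower once mouse 18 was left out (log2 fold change -1.06, edgeR adjusted p = 0.0488, against -0.18 and 0.832 with all mice).

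Lysyl oxidase transcripts as a whole were scarce. Their summed level was 3.04, 3.37 and 4.22 TPM in control mice, 10.7, 15.2 and 12.1 TPM in NASH mice, and 7.06, 5.82 and 5.62 TPM in NASH+Exercise mice. All trained mice lay between the control and NASH groups. The make-up of the family also differed between groups: Loxl1 was 21.4% ± 2.8 of the sum in control mice, 35.8% ± 1.4 in NASH mice and 31.7% ± 6.1 in trained mice (SD, n = 3), and Lox was 3.34% ± 1.67, 10.7% ± 3.6 and 6.01% ± 1.19. Loxl4 was 25.4% ± 5.8 of the sum in control and 12.6% ± 1.8 in NASH, and ranged from 6.58% to 28.7% among the trained mice. Loxl2 and Loxl3 held 33.4% ± 8.7 and 16.5% ± 0.9 in control and 26.4% ± 4.2 and 14.5% ± 0.9 in NASH.

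**Figure D3:**
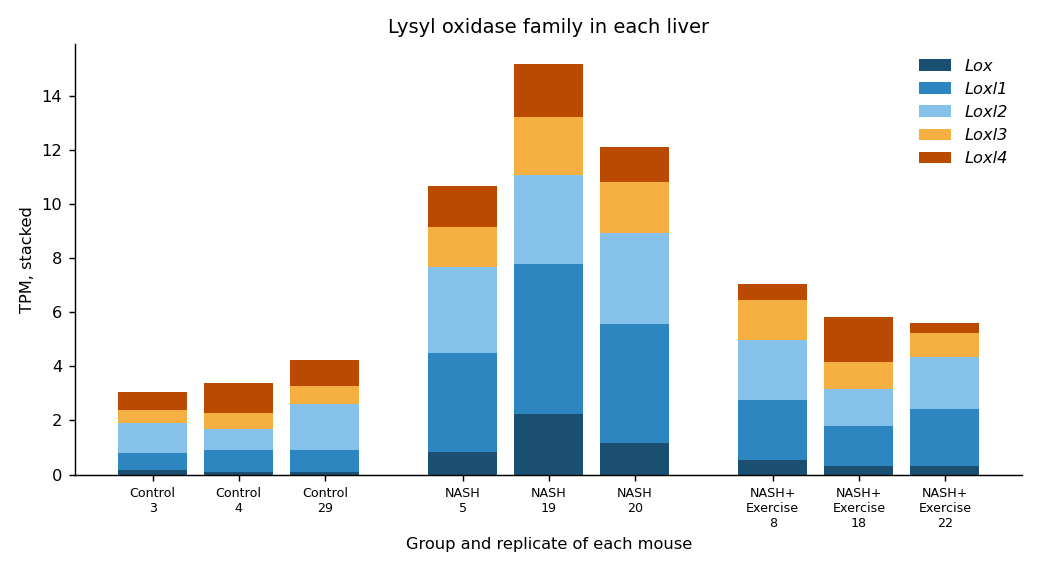
TPM of the 5 lysyl oxidases stacked for each liver, by group and replicate number. The sums run from 3.04 to 4.22 TPM in control mice, from 10.7 to 15.2 TPM in NASH mice and from 5.62 to 7.06 TPM in trained mice, and NASH mouse 19 has the tallest bar.

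Of the lysyl hydroxylases, Plod2 changed with the diet and Plod1 did not pass in any comparison. Plod2 (chr9:92539636-92608428), the telopeptide lysyl hydroxylase, measured 0.483, 0.445 and 0.459 CPM in control, 1.29, 2.60 and 2.25 CPM in NASH, and 1.35, 1.51 and 2.15 CPM in NASH+Exercise mice. Every mouse on the Ath diet lay above every control mouse, and the groups on the diet overlapped. Plod2 was 4.39-fold higher in NASH than in control (log2 fold change 2.13, SE 0.36, edgeR adjusted p = 0.00109) and was a DEG in NASH+Exercise mice against control (1.84, edgeR adjusted p = 0.00412). Between the groups on the diet its log2 fold change was -0.30 (95% confidence interval -0.98 to 0.38, edgeR adjusted p = 0.693). The control livers held 8 or 9 estimated counts of Plod2 each, and 5.51% of its 50-base words match the opposite strand of Gm38391.

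Plod1 (chr4:147909753-147936776), which hydroxylates lysine residues in the helix, was the most abundant member. It measured 61.3, 85.1 and 50.6 CPM in control, 64.0, 54.3 and 65.4 CPM in NASH, and 60.8, 63.9 and 84.0 CPM in NASH+Exercise mice. The 3 groups overlapped, with the highest and the lowest level both in control. Its log2 fold change in NASH against control was -0.10 (95% confidence interval -0.53 to 0.33, edgeR adjusted p = 0.729) and turned positive with scaling by library size alone (0.27), with limma on log2(TPM + 1) (0.35, adjusted p = 0.0377) and without control mouse 4 (0.11). Among Plod1, Plod2 and Plod3 together, Plod1 held 66.6% ± 2.0 of the TPM in control and 61.6% ± 1.3 in NASH, and Plod2 held 0.436% ± 0.111 and 1.84% ± 0.72 (SD, n = 3).

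The prolyl 4-hydroxylase alpha subunits P4ha1 and P4ha2 showed another order of groups, with the highest mean in the trained mice. P4ha2 (chr11:54100924-54131668) measured 5.85, 6.34 and 4.03 CPM in control, 7.77, 5.39 and 6.89 CPM in NASH, and 10.2, 8.26 and 9.51 CPM in NASH+Exercise mice. On this scale all trained mice lay above all other mice, whereas control and NASH overlapped. By TPM the trained mice (8.12, 5.78 and 6.06) overlapped with the NASH mice (6.63, 5.03 and 5.70). P4ha2 rose in NASH+Exercise mice against control (log2 fold change 0.79, SE 0.21, edgeR adjusted p = 0.0188), a call lost without control mouse 29 (edgeR adjusted p = 0.0627) or NASH+Exercise mouse 8 (0.0657). Against NASH its log2 fold change was 0.48 (95% confidence interval 0.03 to 0.93, edgeR adjusted p = 0.300), or 0.29 with scaling by library size alone and 0.17 by limma on log2(TPM + 1), and in NASH against control it was 0.31 (edgeR adjusted p = 0.285), where scaling by library size alone (0.66, edgeR adjusted p = 0.0246) and limma on log2(TPM + 1) (0.61, adjusted p = 0.0173) passed it.

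P4ha1 (chr10:59323197-59373304), the other catalytic subunit among the members, varied more between mice. It measured 15.8, 13.7 and 7.04 CPM in control, 21.8, 16.7 and 13.1 CPM in NASH, and 15.2, 24.5 and 36.1 CPM in NASH+Exercise mice. Every pair of groups overlapped, with NASH+Exercise mouse 22 the highest and control mouse 29 the lowest. The log2 fold change was 0.50 in NASH against control (edgeR adjusted p = 0.321), where limma on log2(TPM + 1) passed it (0.84, adjusted p = 0.0419), and 0.56 in NASH+Exercise against NASH (edgeR adjusted p = 0.491). For NASH+Exercise against control it was 1.05 (95% confidence interval 0.24 to 1.87, edgeR adjusted p = 0.0607). It passed without NASH+Exercise mouse 8 (1.32, edgeR adjusted p = 0.0264), with scaling by library size alone (1.19, adjusted p = 0.0251), by DESeq2 (1.03, adjusted p = 0.0260) and by limma on log2(TPM + 1) (1.02, adjusted p = 0.0337). P4ha1 held 60.3% ± 5.3 of the TPM of the pair in control mice, 63.9% ± 6.4 in NASH mice and 63.4% ± 12.0 in trained mice (SD, n = 3), so its share differed by less than the spread between mice.

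Serpinh1 (chr7:99345375-99353239), the collagen chaperone, rose in both groups on the diet. Its level was 4.13, 6.39 and 4.85 CPM in control, 23.1, 25.7 and 26.8 CPM in NASH, and 24.1, 16.9 and 34.9 CPM in NASH+Exercise mice. All mice on the diet lay above all control mice, and the trained mice surrounded the NASH mice, with mouse 18 below them and mouse 22 above. The means were 25.2 CPM ± 1.9 for NASH and 25.3 CPM ± 9.1 for NASH+Exercise mice (SD, n = 3). Serpinh1 was 4.92-fold higher in NASH than in control (log2 fold change 2.30, SE 0.26, edgeR adjusted p = 0.000104), and NASH+Exercise against control gave 2.30 as well (edgeR adjusted p = 0.00017). Set against NASH mice, the trained mice gave a log2 fold change of 0.00 (95% confidence interval -0.52 to 0.53, edgeR adjusted p = 0.998), an interval that runs from 0.70-fold to 1.44-fold.

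By TPM, which allows genes to be compared, the order of the 10 members was led by Plod1 in every group, at 29.1 TPM ± 3.7 in control mice, 37.2 TPM ± 1.3 in NASH mice and 34.1 TPM ± 3.1 in NASH+Exercise mice (SD, n = 3). In control, P4ha1 (5.44 TPM), P4ha2 (3.45 TPM) and Serpinh1 (3.36 TPM) followed, and each overlapped with its neighbour in this order. In NASH, Serpinh1 stood second at 22.5 TPM ± 2.4, and its range was apart from those of Plod1 above and P4ha1 below. In NASH+Exercise, Serpinh1 (18.1 TPM) overlapped with P4ha1 (12.1 TPM). All lysyl oxidases and Plod2 had lower means, from 0.113 TPM for Lox to 1.2 TPM for Loxl2 in control and from 1.10 TPM for Plod2 to 4.54 TPM for Loxl1 in NASH. The NASH range of Loxl1 (3.64 to 5.56 TPM) overlapped with that of P4ha2 (5.03 to 6.63 TPM). In control Loxl2, Loxl4, Loxl1 and Loxl3 stood in that order, each overlapping with the one before, while in NASH the ranges of Loxl1, Loxl2 and Loxl3 were separate.

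The median change of the substrates was larger than that of the members. Of 12 tested collagen and elastin chains, 11 rose in NASH (median log2 fold change 1.98), led by Col1a1 (4.63, edgeR adjusted p = 8.66e-06), Col3a1 (3.47, 2.17e-05), Col1a2 (3.39, 2.64e-05) and Col5a2 (2.67, 0.000384), chains of the fibrillar collagens. Between trained and NASH mice all 12 had a negative log2 fold change, with a median of -0.76, and none passed by edgeR's quasi-likelihood test. The smallest p there belonged to Eln, which encodes elastin (-1.61, edgeR adjusted p = 0.116), and Col1a1 (-1.25, 0.122). Against control, 9 passed as higher in NASH+Exercise mice, Col1a1 among them (3.38, edgeR adjusted p = 6.68e-05). The summed TPM of Col1a1, Col1a2 and Col3a1 was 4.2, 4.29 and 5.93 in control, 68.9, 111.1 and 80.4 in NASH, and 44.3, 18.3 and 34.6 in NASH+Exercise mice. No 2 groups overlapped.

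Set against those 3 collagens, Serpinh1 had 70.9 ± 12.5 TPM per 100 TPM of collagen in control mice, 26.5 ± 3.7 in NASH mice and 58.6 ± 12.3 in NASH+Exercise mice (SD, n = 3). Loxl1 had 15.9 ± 3.0, 5.26 ± 0.24 and 6.46 ± 1.61, and Lox had 2.45 ± 1.18, 1.56 ± 0.41 and 1.24 ± 0.37. The ratio to collagen was lower in all NASH than in all control mice for 9 members, all but Lox, and for 95% of all genes tested. It was higher in all NASH+Exercise than in all NASH mice for 6 members (Loxl2, Loxl3, Plod1, Plod2, P4ha2 and Serpinh1) and for 73.4% of all genes, so both counts are near the background set by the collagens themselves.

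The other genes of collagen maturation were read from a list of 41, of which 36 were tested. In NASH against control 15 of them rose and 3 fell, and the median log2 fold change was 0.49. Among other hydroxylases and their partners, 2 of 9 rose, Crtap (1.04, edgeR adjusted p = 0.0019), a subunit of the prolyl 3-hydroxylase complex, and P3h3 (0.71, 0.0188), while P4hb, the beta subunit that pairs with P4ha1 and P4ha2, gave -0.12 (0.649). Among chaperones and export factors, Creb3l1 (1.69, edgeR adjusted p = 0.000393), a transcription factor for collagen genes, Fkbp10 (1.63, 0.000873), a prolyl isomerase that works with Plod2, and Creb3l2 (0.90, 0.0424) rose, and Sec23a (-0.76, 0.000235), a coat protein of the vesicles that export procollagen, and Fkbp14 (-0.53, 0.0477) fell. Among genes of propeptide cleavage, Pcolce (1.27, edgeR adjusted p = 0.000375), Pcolce2 (1.27, 0.0171) and Adamts2 (1.19, 0.000144) rose, and Bmp1 (-0.92, 0.0011), the procollagen C-proteinase that also activates Lox, fell.

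Among 10 further crosslinking enzymes and partners of the lysyl oxidases, 7 rose in NASH and none fell. Fmod (1.78, edgeR adjusted p = 0.00493) binds collagen fibrils and Lox, Ltbp1 (1.62, 0.00036) and Efemp2 (1.47, 0.000407) are fibrillar matrix proteins of which Efemp2 assists Lox in elastic fibres, and Tgm2 (0.90, 0.000231) is a transglutaminase. Between trained and NASH mice, none of the 36 passed by edgeR's quasi-likelihood test, 12 had an unadjusted p under 0.05, and the median was -0.15, against -0.03 for all genes. The values with the smallest p in each list were Ppib (0.59, edgeR adjusted p = 0.195) and P3h3 (-0.57, 0.230), Pdia3 (0.50, 0.136) and Creb3l1 (-0.69, 0.210), Adamts2 (-0.58, 0.131) and Pcolce (-0.41, 0.299), and Ltbp1 (-1.12, 0.101) and Fbln5 (-0.80, 0.122). Against control, 14 rose in trained mice and 3 fell. Those that rose included Ppib (0.85, edgeR adjusted p = 0.00678), a prolyl isomerase of the endoplasmic reticulum, Pdia3 (0.64, 0.00455), Fkbp10 (1.10, 0.0130), Creb3l2 (1.08, 0.0265), Tgm1 (1.12, 0.00552) and the copper transporter Atp7a (0.69, 0.0182), which supplies copper to lysyl oxidases, and the 3 that fell were Sec23a, Fkbp14 and Bmp1.

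**Figure D4:**
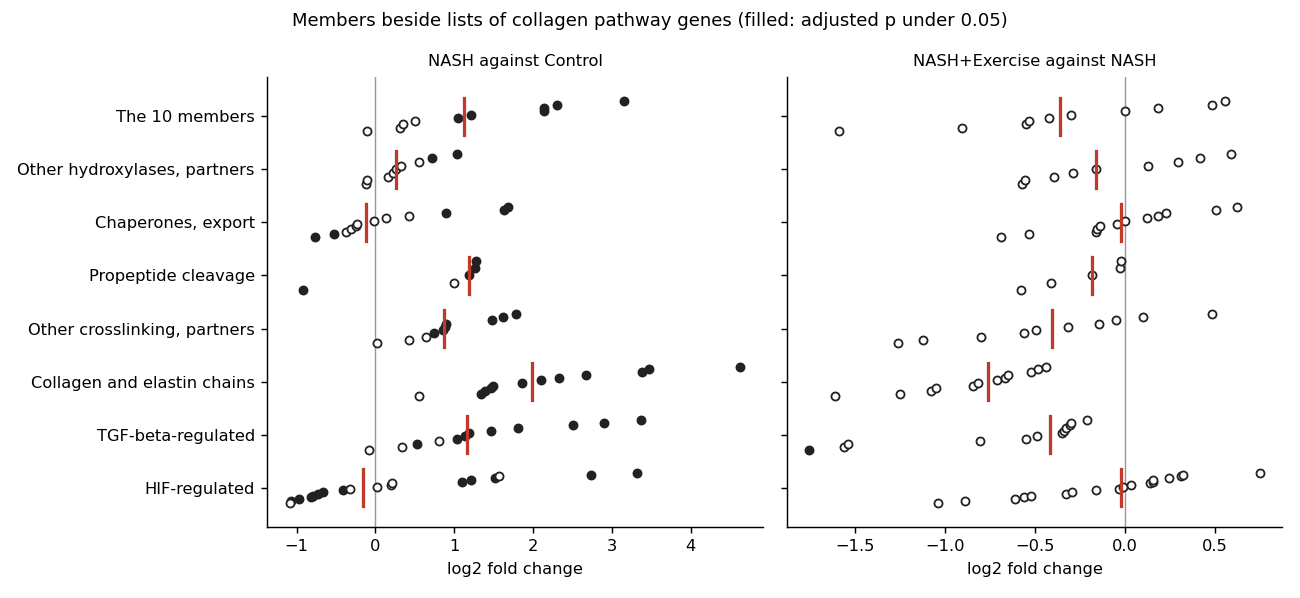
Log2 fold change of each tested gene in the 10 members and in 7 lists, for NASH against control and NASH+Exercise against NASH. Filled points passed (adjusted p under 0.05 by edgeR's quasi-likelihood test) and red lines are list medians, such as 1.13 and -0.36 for the members and 1.98 and -0.76 for the collagen and elastin chains.

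Genes known to respond to TGF-beta and to HIF were listed because Lox, Loxl2, Plod2, P4ha1 and P4ha2 are known targets of HIF and Lox of TGF-beta. Of 12 TGF-beta-regulated genes, 9 rose in NASH (median log2 fold change 1.17), among them Ltbp2 (3.37, edgeR adjusted p = 0.000174), Thbs1 (2.90, 0.00242), Tgfb2 (2.51, 0.00432) and Tgfb1 (1.81, 5.79e-05). All 12 had a negative log2 fold change in NASH+Exercise against NASH, and 1 passed, Ccn2 (-1.75, edgeR adjusted p = 0.0450), a matrix protein of fibrotic tissue. Of 18 HIF-regulated genes, 5 rose and 7 fell in NASH, with a median of -0.15. The glycolytic genes Hk2 (3.32, edgeR adjusted p = 1.33e-05) and Pfkfb4 (2.74, 4.24e-05) rose, and Pdk1 (-1.07, 0.000581) and Bnip3 (-0.97, 0.00231) fell. Between trained and NASH mice none of the 18 passed by edgeR's quasi-likelihood test and 4 had an unadjusted p under 0.05. The smallest p values were those of Ndrg1 (-1.04, edgeR adjusted p = 0.128) and Pfkfb4 (-0.61, 0.260).

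Markers of the cells that make collagen were measured beside the members. In NASH 7 of 15 stellate cell and myofibroblast markers rose, among them Pdgfrb (1.57, edgeR adjusted p = 0.000231), Cygb (1.24, 4.63e-05), Lum (2.18, 0.00105) and Timp1 (6.25, 3.51e-05), whereas Acta2 and Lrat did not pass. Their summed TPM ranged from 89.1 to 224.6 in control mice, from 250.3 to 415.6 in NASH mice and from 164.8 to 243.6 in trained mice. Most of these stellate sums was Dcn, with means of 105.9 TPM in control, 212.2 TPM in NASH and 129.8 TPM in NASH+Exercise mice. All 7 tested markers of portal fibroblasts and mesothelium rose, from 22.3 to 26.2 TPM summed in control mice to 77.1 to 121.8 TPM in NASH mice, and lay at 44.0 to 57.7 TPM in NASH+Exercise mice. The portal sums kept the groups apart in the order of Lox and Loxl1. The largest part of the portal sums was Gas6. Its means were 18.32 TPM in control, 71.98 TPM in NASH and 41.75 TPM in NASH+Exercise mice. The order of groups was not that of Gas6 alone. Thy1 (2.093, 9.25 and 4.583 TPM) and Dpt (2.0, 10.06 and 4.377 TPM) had means in the same order, whereas the scarce Gli1 and Upk3b did not. Between trained and NASH mice, 13 of 15 stellate markers and 7 of 7 portal markers had a negative log2 fold change and none passed by edgeR's quasi-likelihood test, with 5 and 6 at an unadjusted p under 0.05.

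Macrophage markers rose in NASH in 8 of 8 cases (69.8 to 141.7 TPM summed in control, 1105 to 1532 TPM in NASH, 728.6 to 955.2 TPM in NASH+Exercise). Lyz2 was the largest part of these sums, with means of 30.65, 637.0 and 366.9 TPM. In the same order of groups, 4 of 8 endothelial markers rose (59.5 to 124.8, 127.7 to 172.4 and 92.6 to 136.4 TPM), and 3 of 8 hepatocyte markers fell (107500 to 115300, 91520 to 112300 and 77730 to 101500 TPM). The largest part of the hepatocyte sums was Alb, with means of 63190 TPM in NASH and 49400 TPM in NASH+Exercise mice. After TMM scaling, 6 of 8 hepatocyte markers had a positive log2 fold change in NASH+Exercise against NASH (median 0.22). None of them passed there by edgeR's quasi-likelihood test. Of 6 tested cholangiocyte markers 3 rose, and NASH mouse 19, which had the highest Lox and Loxl1, stood apart at 572.1 TPM summed against 140.6 and 131.8 TPM in the other NASH mice. The largest part of its sum was Spp1, at 520.2 TPM against 114.9 and 116.9 TPM in the others. All other cholangiocyte markers were highest in NASH mouse 19 too. So were the macrophage markers Cd68, Lyz2, Gpnmb (106.6 TPM against 26.11 and 34.98 TPM) and Trem2 (44.78 TPM against 11.31 and 14.92 TPM). The macrophage markers Adgre1, Csf1r, Clec4f and Cd5l were lower in NASH mouse 19 than in the other NASH mice. Without NASH mouse 19 the same 6 members passed in NASH against control. The 4 skeletal muscle and pancreas markers measured, of 8 listed, summed to between 5.01 and 12.0 TPM. The part of cell composition in the differences of the members was not tested.

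The 3 genes nearest to Lox in their course over the 9 mice, by the root mean square difference of centred log2 CPM, were Capn6 (0.232), Cdc20 (0.252) and Kif2c (0.253). Those nearest to Plod2 were Tmem273 (0.159), Smim6 (0.212) and Emp3 (0.221), and those nearest to Serpinh1 were Tmem268 (0.199), Tmem26 (0.207) and C5ar1 (0.222). Tmem268 had log2 fold changes of 2.29 in NASH against control and 0.00 in NASH+Exercise against NASH. Such closeness over 9 mice in 3 groups is a description of the levels only.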

How the data were processed

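mRNA isolated from the livers of 9 mice was sequenced, and the authors deposited 1 table per mouse with estimated counts and TPM per Entrez gene. The submitters' processing notes name HISAT2 2.1.0, Bowtie2 2.2.5, RSEM 1.2.8 and GRCm38.p6. The deposited estimated counts were rounded to whole numbers, and the deposited TPM values were used to compare genes, for shares and for ratios. RefSeq symbols were found for 17728 of 17846 gene IDs. Groups came from the sample titles and labels. In edgeR 4.0.16 (R 4.3.3), genes were kept by filterByExpr, scaled by TMM and fitted over the 9 mice by group alone, with robust glmQLFit and glmQLFTest with Benjamini-Hochberg adjustment over 13619 genes. Intervals are 95% and cover the fit of 1 gene at a time. P-values measure the spread between 3 mice a group. The study's own method, DESeq2 (1.42.0), was run on the 6 mice of each comparison as an alternative, and limma 3.58.1 on log2(TPM + 1). The functions were tested on simulated counts. Named list genes were, per list and comparison, up to 4 passing genes in each direction by size of change, or where none passed the 2 with the smallest p, not all of which are printed. The members and lists were chosen with earlier results of these data known. Shared 50-base words were counted in GENCODE M21 transcripts, since the transcript set used for counting is not given in the sources used here, and no member shared any with another member.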

Additional observations from a re-analysis of the deposited data

How the results depend on the processing

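Each member was refitted in each comparison under 16 alternatives, and of the 480 fold changes 437 kept their direction and side of the threshold, 16 lost significance, 12 gained it and 15 changed sign. With DESeq2, 2 members passed and 1 was a DEG in NASH+Exercise against NASH, where edgeR had none. DEGs there were 1.16% of the genes with any count in those 6 mice. With limma on log2(TPM + 1), which understates the change of low genes, 1 member passed there (2.24% of all genes). In NASH against control 9 passed by limma (40.9% of all genes) but 3 were DEGs (13.9%). In NASH+Exercise against control 2 were DEGs by limma (7.84%). By edgeR's glmTreat, which tests against a log2 fold change of 1, 4 members were DEGs in NASH against control (Lox, Loxl1, Plod2 and Serpinh1), as were 9.61% of all genes. Loxl2 and Loxl3 were not. In NASH+Exercise against control 1 was a DEG by glmTreat, Serpinh1, as were 5.68% of all genes. Leaving out each mouse in turn, 6 members passed in NASH against control each time (25.7% to 35.6% of all genes), with 5 to 6 DEGs (15.7% to 18.6%). In NASH+Exercise against NASH 0 members passed and 0 were DEGs, where at most 0.246% of all genes passed. In NASH+Exercise against control 4 to 6 members passed (18.1% to 23.3% of all genes), with 3 to 5 DEGs (11.2% to 13.3%). For each comparison, 3 of these fits leave out a mouse of the group not compared and so test its fold change little. For Lox in NASH against control they gave 3.15 each time, as with all mice.

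The 15 changes of sign were all in values that did not pass by edgeR with all mice. Plod1 in NASH against control became 0.27 by library size alone, 0.35 by limma and 0.11 without control mouse 4 (-0.30 to 0.11 over the mice left out), in NASH+Exercise against NASH -0.025 by library size and -0.12 by limma, and against control -0.10 without control mouse 29 and -0.07 without NASH+Exercise mouse 22 (-0.10 to 0.34 over the mice left out). Serpinh1 in NASH+Exercise against NASH became -0.22 by library size, -0.010 with a minimum of 1 CPM in 3 mice, -0.34 by limma, -0.30 without NASH+Exercise mouse 22 and -0.05 without NASH mouse 5 (-0.30 to 0.23 over the mice left out). Loxl4 in NASH+Exercise against control became 0.14 without control mouse 4, 0.08 without NASH+Exercise mouse 8 and 0.15 without mouse 22 (-1.06 to 0.15 over the mice left out). Library size alone and TPM shift the median gene by 0.36 and 0.34 in NASH against control and by -0.23 and -0.26 in NASH+Exercise against NASH. The cause of the changes of sign was not tested. Depth limits Lox and Plod2 most, at 5 to 9 estimated counts per control liver. No paired analysis was possible because the groups share no replicate numbers.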
